A study of Mus musculus with 9 samples.

Results

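The genes described here are 10 components of the transforming growth factor beta (TGF-beta) and bone morphogenetic protein (BMP) receptor system: the type I receptors Acvr1, Acvr1b, Tgfbr1 and Bmpr1a, the type II receptors Acvr2a, Acvr2b, Tgfbr2 and Bmpr2, the co-receptor Tgfbr3, and Ltbp1. They were chosen by symbol, through the Entrez identifiers of the count table, and make up 10 of its 27179 genes. After a filter on low counts 12484 genes were tested, 9 of the 10 among them. Ltbp1 encodes an extracellular binding protein and is not itself a receptor.

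RNA was sequenced from HPC7, a stem cell factor-dependent line of mouse haematopoietic progenitors. The culture of all 9 libraries held 100 ng/ml mouse stem cell factor, 10% fetal calf serum and 0.05 mM mercaptoethanol. All cells carried a retroviral MSCV-IRES-GFP vector, in which the viral promoter also drives green fluorescent protein, and were sorted as fluorescent 1 week after transduction. There were 3 libraries with mutant Snai1, whose phenylalanine at residue 5 is exchanged for alanine, 3 with wild-type Snai1 and 3 with the empty vector. The exchange impairs binding to Lsd1, a histone demethylase encoded by Kdm1a that the zinc finger repressor Snai1 recruits, so the comparisons ask what Snai1 does to the transcriptome with and without that contact. The labels do not say whether the libraries of a group came from separate transductions, so p-values measure the spread between libraries, which may be technical. Snai1 is far above its native level in both transduced groups, which limits them as a model of the endogenous gene.

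In this pathway a ligand brings together type II and type I receptors, which are serine/threonine kinases. The type II receptor phosphorylates the type I receptor, which in turn phosphorylates Smad proteins: Tgfbr1 and Acvr1b act mainly on Smad2 and Smad3, and Acvr1 and Bmpr1a on Smad1 and Smad5. In blood progenitors TGF-beta signalling is known for holding stem cells in quiescence. TGF-beta is a classical inducer of Snai1 in epithelial cells.

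Total counts ran from 18332451 to 20860314 per library, and 3 counts, the floor used here, corresponded to 0.144 to 0.161 CPM (counts-per-million). Snai1 was at 460 ± 40.2 CPM with mutant Snai1, 492 ± 68.5 CPM with wild-type Snai1 and 0.828 ± 0.205 CPM with empty vector (SD, n = 3 each), counts that include the vector transcript. Kdm1a averaged 199 CPM with mutant Snai1 and 201 CPM in each of the other groups. All 12 listed markers of the HPC7 progenitor state were tested, and Kit was at 3540 ± 169 CPM with mutant Snai1, 3389 ± 220 CPM with wild-type Snai1 and 3614 ± 62.3 CPM with empty vector. Other markers of that list moved with wild-type Snai1, 2 up and 3 down by the test described below. Lmo2 averaged 134 CPM with wild-type Snai1 and 66.3 CPM with empty vector, Runx1 84.6 and 164 CPM, and Tal1 292 and 400 CPM. The library of wild-type Snai1 replicate 1 stood apart: 5.29% of tested genes were at least 2-fold away from the mean of the other 2 libraries of its group, against 0.513% to 1.99% for the other 8 libraries. Receptor gene results that rest on it are given with and without it.

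Markers of other cell types moved with wild-type Snai1. Of 12 listed monocyte and macrophage markers, 9 were tested and all 9 rose against empty vector, with C1qa at 0 in every library. Among the 9, Adgre1, Cd14 and Cx3cr1 passed the filter only through wild-type Snai1, so a rise was the only call open to them. The summed level of the list was 745 to 827 CPM with mutant Snai1, 1579 to 2161 CPM with wild-type Snai1 and 721 to 751 CPM with empty vector. Fcgr3 averaged 714 CPM with mutant Snai1, 772 CPM with wild-type Snai1 and 664 CPM with empty vector. That 1 gene made up most of the mutant Snai1 and empty vector sums. Of 9 neutrophil markers, 3 were tested and 2 rose, Lcn2 and Mmp8, which passed the filter only through wild-type Snai1. The summed level was 1.05 to 2.34 CPM for mutant Snai1, 57.8 to 134 CPM for wild-type Snai1 and 1.33 to 1.82 CPM for empty vector. Lcn2, at a mean of 83.1 CPM, made up most of the wild-type Snai1 sum. Ltf averaged 1.32 CPM with mutant Snai1, 1.21 CPM with wild-type Snai1 and 1.37 CPM with empty vector. Camp, Ngp, S100a8 and S100a9 reached at most 1.003 CPM, and Retnlg and Ly6g were at 0. In the other lists, 0 markers rose and 4 of 5 tested fell for erythroid cells (summed level 34.5 to 39.2 CPM with mutant Snai1, 14.6 to 17.7 CPM with wild-type Snai1 and 31.1 to 33.7 CPM with empty vector), 1 rose and 1 fell of 3 for mast cells, 2 rose and 2 fell of 5 for megakaryocytes, and 2 rose and 3 fell of 12 for progenitors. The single tested lymphoid marker and the single tested fibroblast marker (Pdgfrb) fell, with Col3a1, Dcn, Lum and Thy1 at 0, the single tested endothelial marker did not pass, and 0 of 6 epithelial markers could be tested. Their part in the receptor results was not tested, and a smaller share of cells of a type cannot be told apart from less RNA per cell in such bulk samples.

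Sequence upstream of the genes that moved most is shown here, since Snai1 is a DNA-binding repressor whose zinc fingers favour the E-box CAGGTG. The 250 bases before the annotated transcription start of Acvr1 (chr2:58566829-58567078, minus strand) and of both annotated starts of Ltbp1 (chr17:75005279-75005528 and chr17:75178531-75178780, plus strand) come from RefSeq on GRCm38.p6. They are printed from 5′ to 3′ on the gene's strand, with any CANNTG motif in capitals.
Acvr1: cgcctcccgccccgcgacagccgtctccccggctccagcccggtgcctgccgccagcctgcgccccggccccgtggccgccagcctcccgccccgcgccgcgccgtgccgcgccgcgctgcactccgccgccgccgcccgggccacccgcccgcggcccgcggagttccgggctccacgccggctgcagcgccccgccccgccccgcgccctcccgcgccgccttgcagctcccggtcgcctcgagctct
Ltbp1, upstream start: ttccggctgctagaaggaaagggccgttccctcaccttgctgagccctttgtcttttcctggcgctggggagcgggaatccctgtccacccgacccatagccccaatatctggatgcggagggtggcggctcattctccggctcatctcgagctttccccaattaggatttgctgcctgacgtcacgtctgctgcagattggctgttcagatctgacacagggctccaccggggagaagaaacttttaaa
Ltbp1, internal start: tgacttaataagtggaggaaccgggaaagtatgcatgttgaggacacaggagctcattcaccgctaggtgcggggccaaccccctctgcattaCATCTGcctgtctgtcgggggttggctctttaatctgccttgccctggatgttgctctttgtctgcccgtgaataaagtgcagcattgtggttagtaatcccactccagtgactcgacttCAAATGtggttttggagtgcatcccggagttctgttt
The Acvr1 window, at 83.7% GC over its 300 bases, and the upstream window of Ltbp1 held no CANNTG. The internal window of Ltbp1 held CATCTG beginning 157 bases and CAAATG beginning 37 bases before the start.

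Windows from 250 bases before to 50 bases after the start were found for 9 of the 10 genes, 11 windows in all. On either strand, CAGGTG was in 0 of these 11 windows, against 20.2% of all 32851 windows of the same length in the RefSeq table. The general form CANNTG, which includes CAGGTG, was in 4 of 11 (36.4%) against 72.3%. The other matches were CACGTG in Acvr1b, beginning 54 bases before the start, CATTTG in a second start of Tgfbr1, 238 bases before it, and CAGCTG in Tgfbr2, 16 bases after it. The windows of the receptor genes had a median GC content of 73.3%, against 52.7% in the table. A match or its absence describes these letters in these windows and no more.

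Levels of different genes were compared as CPM per kilobase of the deposited gene length. With empty vector the order was Acvr1b (52.1 ± 1.61), Tgfbr2 (42.8 ± 0.739), Tgfbr1 (40.4 ± 1.43), Bmpr2 (15.1 ± 1.14), Tgfbr3 (3.75 ± 0.50), Acvr2b (3.26 ± 0.547), Ltbp1 (2.49 ± 0.344), Acvr2a (1.35 ± 0.0155), Acvr1 (0.177 ± 0.00186) and Bmpr1a (0). The ranges of Tgfbr3 and Acvr2b overlapped there, as did those of Acvr2b and Ltbp1, and all other neighbours were separate. The type I receptors Acvr1b and Tgfbr1 and the type II receptor Tgfbr2 thus stood at the top of the order, and the type I receptors Acvr1 and Bmpr1a at the bottom. With mutant Snai1 the order was the same and no neighbours overlapped. With wild-type Snai1 the order changed below Bmpr2, with Ltbp1 at 7.29 ± 0.634 and Acvr1 at 3.71 ± 1.25 CPM per kilobase moving above Tgfbr3, Acvr2b and Acvr2a. There the ranges of Acvr1b, Tgfbr2 and Tgfbr1 overlapped in sequence, as did those of Acvr1, Tgfbr3 and Acvr2b. Among all tested genes the per-length level of Acvr1 was at percentile 3.24 with mutant Snai1, 24.8 with wild-type Snai1 and 2.87 with empty vector.

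**Figure D1:**
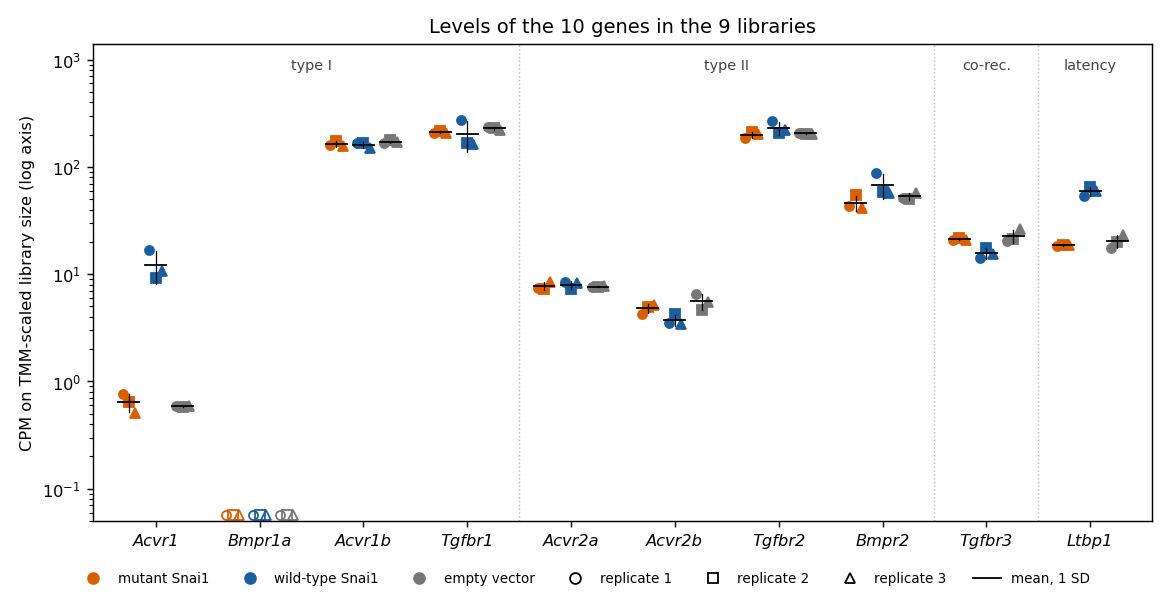
Levels of the 10 genes in CPM on a log axis, with 1 point per library and the groups side by side as mutant Snai1, wild-type Snai1 and empty vector. Acvr1 and Ltbp1 stand higher in the 3 wild-type Snai1 libraries than in the other 6, and Bmpr1a, at 0 counts in all 9, is drawn at the lower edge.

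Of the 9 tested genes, 2 (Acvr1 and Ltbp1) were higher and 2 (Tgfbr3 and Acvr2b) lower with wild-type Snai1 than with empty vector (edgeR's quasi-likelihood test, Benjamini-Hochberg adjusted p under 0.05 over all tested genes). Those 4 are 44.4% of the 9, where 49.4% of all tested genes were called, 25.2% higher and 24.3% lower, so the share of receptor genes was near the background. The median size of the log2 fold change, without sign, was 0.36 over the 9 genes and 0.29 over all tested genes. With mutant Snai1 against empty vector 0 of the 9 were called by the same test, by DESeq2 and at an unadjusted p under 0.05. In that comparison 0.00801% of tested genes were called, which is 1 gene, Snai1, and 4.83% had an unadjusted p under 0.05. The number called there depended on the fit, at 10 genes by DESeq2, 30 when only these 2 groups were fitted and 62 without wild-type Snai1 replicate 1, with 0 of the 9 in each. Between both vectors, 1 gene (Tgfbr3) was higher with mutant than with wild-type Snai1 and 3 (Acvr1, Ltbp1 and Bmpr2) were lower, 44.4% of the 9 against 47.9% of all tested genes (23.4% higher and 24.5% lower). The libraries of both groups did not overlap for 1 of the 9 genes with mutant Snai1 against empty vector (17.6% of all tested genes), 4 with wild-type Snai1 against empty vector (56.6%) and 5 with mutant against wild-type Snai1 (55.8%). Without wild-type Snai1 replicate 1, 2 genes were higher and 3 lower with wild-type Snai1 against empty vector, and 2 were higher and 3 lower with mutant against wild-type Snai1. The calls over all tested genes rose as well without that library. They numbered 7410 and 7308 of 12619 genes, where all libraries gave 6172 and 5977 of 12484. Each pair of these comparisons shares a group of libraries.

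**Figure D2:**
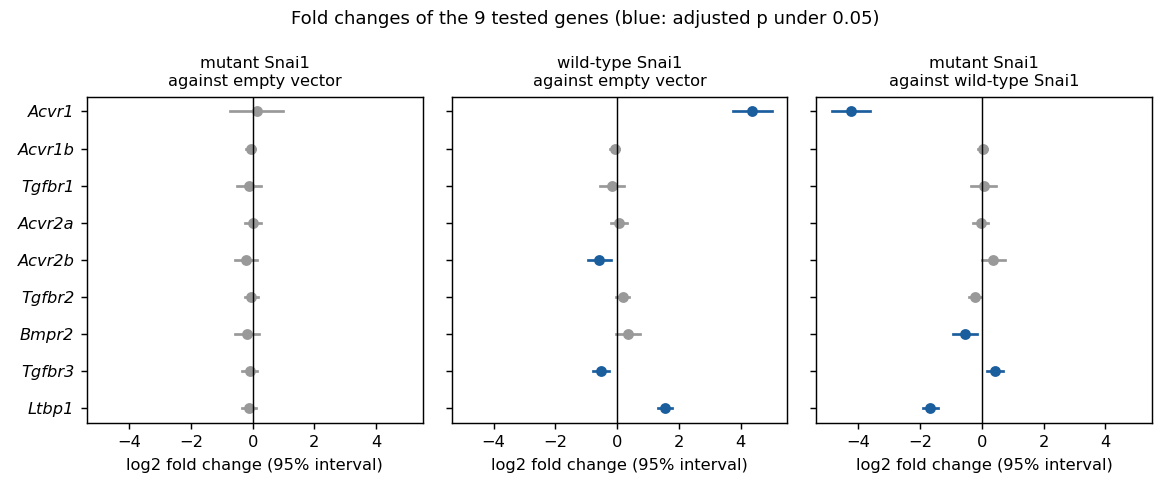
Log2 fold changes of the 9 tested genes with 95% intervals in the 3 comparisons, with called genes in blue. Acvr1 (4.37) and Ltbp1 (1.55) lie far to the right for wild-type Snai1 against empty vector, and all 9 intervals include 0 for mutant Snai1 against empty vector.

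Acvr1, a type I receptor for BMPs and activins whose activating human mutations cause fibrodysplasia ossificans progressiva, changed most. It had 0.764, 0.649 and 0.511 CPM with mutant Snai1, 16.9, 9.15 and 10.6 CPM with wild-type Snai1, and 0.585, 0.578 and 0.590 CPM with empty vector. These come from 10 to 15 counts per library with mutant Snai1, 187 to 340 with wild-type Snai1 and 11 or 12 with empty vector. All 3 wild-type Snai1 libraries were above the other 6, while mutant Snai1 and empty vector overlapped. The log2 fold change with wild-type Snai1 against empty vector was 4.37 (SE 0.29, adjusted p = 1.28e-06), a 20.7-fold difference that 0.793% of tested genes exceeded. It was 4.07 without wild-type Snai1 replicate 1, the highest library. Mutant Snai1 was at -4.24 against wild-type Snai1 (SE 0.28, adjusted p = 1.46e-06) and at 0.13 against empty vector (95% interval -0.73 to 1.00, adjusted p = 0.999). Acvr1 lies on chromosome 2 between positions 58446438 and 58566828 on the minus strand (GRCm38), and its exons overlap no other annotated gene.

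Bmpr1a, the broadly expressed BMP type I receptor, had 0 counts in all 9 libraries and could not be tested. A count of 0 allows up to 0.144 to 0.161 CPM per library, for counting error only. The deposited Bmpr1a length is 5332 bases, against 6351 bases of GENCODE exons, and which exons were counted is not given in the sources used here, so the 0 covers only reads in the deposited model. Bmpr1b and Acvr1c, further type I receptors, were also at 0 in every library, so the type I receptors for BMPs with counts were Acvr1 and Acvrl1.

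The type I receptors for activin and TGF-beta were abundant in every group. Acvr1b, the activin receptor, had 158, 176 and 157 CPM with mutant Snai1, 166, 168 and 150 CPM with wild-type Snai1, and 166, 177 and 170 CPM with empty vector. Its groups overlapped in each comparison, and the log2 difference of wild-type Snai1 from empty vector was -0.08 (95% interval -0.23 to 0.06, adjusted p = 0.319). Tgfbr1, the TGF-beta type I receptor, had 208, 215 and 208 CPM with mutant Snai1, 277, 167 and 164 CPM with wild-type Snai1, and 236, 231 and 220 CPM with empty vector. Wild-type Snai1 replicate 1 was the highest of all 9 libraries and replicates 2 and 3 of that group the lowest. The log2 difference of wild-type Snai1 from empty vector was -0.18 (SE 0.17, adjusted p = 0.427), and -0.47 (adjusted p = 4.02e-07) without replicate 1. Mutant against wild-type Snai1 was 0.05 (adjusted p = 0.817), and 0.35 (adjusted p = 1.19e-05) without that library. Tgfbr1 was the 1 gene of the 9 whose mutant Snai1 and empty vector libraries did not overlap, all 3 of mutant Snai1 being lower. That difference was not called (log2 -0.12, adjusted p = 0.999).

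Among the type II receptors, Tgfbr2, which binds TGF-beta itself, had 185, 211 and 202 CPM with mutant Snai1, 269, 207 and 219 CPM with wild-type Snai1, and 209, 203 and 203 CPM with empty vector. Wild-type Snai1 replicate 1 was again the highest, and the groups overlapped in every comparison. Wild-type Snai1 differed from empty vector by 0.18 on the log2 scale (adjusted p = 0.136), by 0.0539 (adjusted p = 0.416) without wild-type Snai1 replicate 1 and by 0.25 (adjusted p = 0.0442) without wild-type Snai1 replicate 2. Mutant against wild-type Snai1 was -0.21 (adjusted p = 0.0759), -0.0923 (adjusted p = 0.162) without wild-type Snai1 replicate 1 and -0.29 (adjusted p = 0.0256) without wild-type Snai1 replicate 2.

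Bmpr2, the BMP type II receptor whose loss-of-function variants underlie heritable pulmonary arterial hypertension in humans, had 42.8, 55.1 and 41.3 CPM with mutant Snai1, 88.4, 58.3 and 57.5 CPM with wild-type Snai1, and 51.2, 50.4 and 57.7 CPM with empty vector. All mutant Snai1 libraries were below all wild-type Snai1 libraries, and each of these groups overlapped empty vector. Mutant against wild-type Snai1 was -0.55 (SE 0.17, adjusted p = 0.0251), a call that was lost without mutant Snai1 replicate 1 (adjusted p = 0.0845) or mutant Snai1 replicate 3 (adjusted p = 0.0883). Without wild-type Snai1 replicate 1 the same difference was -0.32 (adjusted p = 0.0235). Wild-type Snai1 against empty vector was 0.36 (adjusted p = 0.113), and 0.13 (adjusted p = 0.333) without that library. The deposited Bmpr2 length is 3507 bases, while the exons of the gene in GENCODE cover 17983 bases, so reads outside the deposited model would not be in its count.

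The activin type II receptors were among the scarcer genes. Acvr2a had 7.39, 7.34 and 8.54 CPM with mutant Snai1, 8.37, 7.24 and 8.32 CPM with wild-type Snai1, and 7.55, 7.66 and 7.73 CPM with empty vector, with overlap in every comparison and no call. Its exons overlap those of Orc4 on the opposite strand over 446 bases, and the strand setting of the counting is not given in the sources used here. Acvr2b had 4.28, 4.99 and 5.16 CPM with mutant Snai1, 3.54, 4.21 and 3.46 CPM with wild-type Snai1, and 6.54, 4.67 and 5.53 CPM with empty vector. The wild-type Snai1 libraries were the 3 lowest of the 9, and mutant Snai1 overlapped empty vector. Acvr2b fell with wild-type Snai1 against empty vector (log2 -0.58, SE 0.17, adjusted p = 0.0153), which without empty vector replicate 1 became -0.46 (adjusted p = 0.0595). Mutant against wild-type Snai1 was 0.36 and was not called (adjusted p = 0.0987), although those groups did not overlap.

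Tgfbr3, or betaglycan, is a co-receptor that presents TGF-beta to Tgfbr2 and also binds inhibin. It had 21.0, 21.7 and 21.0 CPM with mutant Snai1, 14.1, 17.6 and 15.4 CPM with wild-type Snai1, and 20.5, 21.4 and 26.1 CPM with empty vector. The wild-type Snai1 libraries were below the other 6. Tgfbr3 was lower with wild-type Snai1 than with empty vector (log2 fold change -0.53, SE 0.11, adjusted p = 0.00309), and mutant Snai1 was higher than wild-type Snai1 by 0.43 (SE 0.11, adjusted p = 0.00975). Its exons share 297 bases with the GENCODE transcript Gm43422 on the same strand.

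Ltbp1, the latent TGF-beta binding protein that ties the inactive cytokine to the extracellular matrix, had 18.3, 18.9 and 18.9 CPM with mutant Snai1, 54.1, 64.5 and 59.3 CPM with wild-type Snai1, and 17.6, 19.9 and 23.2 CPM with empty vector. Every wild-type Snai1 library was above the other 6, and the other groups overlapped. The log2 fold change with wild-type Snai1 was 1.55 against empty vector (SE 0.10, adjusted p = 1.39e-06), and mutant Snai1 was at -1.67 against wild-type Snai1 (SE 0.10, adjusted p = 8.97e-07). Of all tested genes, 4.21% had a larger fold change with wild-type Snai1 against empty vector. At least 2-fold and called, as Acvr1 and Ltbp1 were, held for 6.73% of tested genes in the higher direction.

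**Figure D3:**
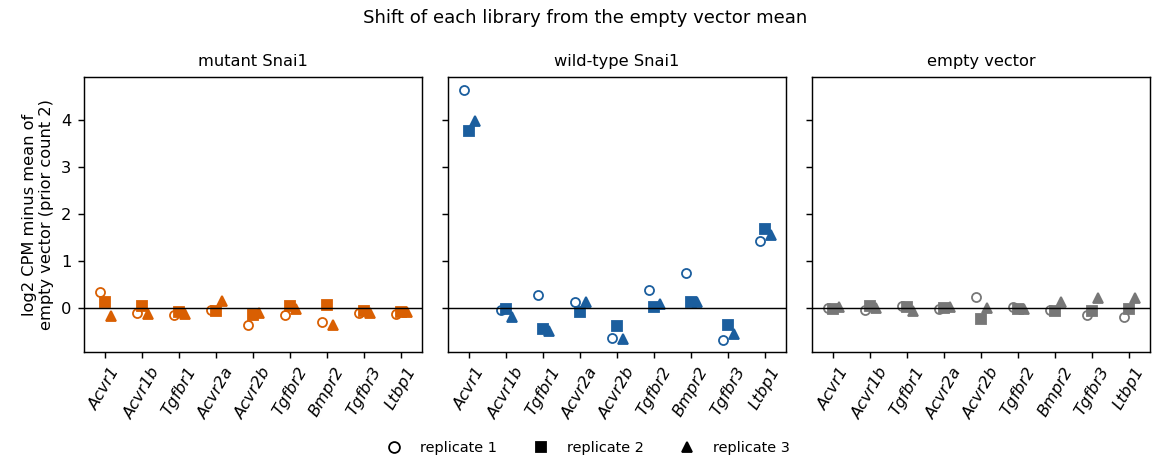
Log2 CPM (prior count 2) of each library minus the empty vector mean for the 9 tested genes, in a panel per group and with a symbol per replicate number. The wild-type Snai1 panel shows Acvr1 and Ltbp1 above the line in all 3 libraries and Acvr2b and Tgfbr3 below it, and replicate 1 (open circles) above replicates 2 and 3 for Tgfbr1, Tgfbr2 and Bmpr2.

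The summed level of all type I receptors was 89.0 ± 3.97 CPM per kilobase with mutant Snai1, 95.2 ± 12.4 with wild-type Snai1 and 94.7 ± 2.19 with empty vector. Acvr1 made up 0.219% ± 0.0446 of that sum with mutant Snai1, 3.84% ± 0.827 with wild-type Snai1 and 0.187% ± 0.00629 with empty vector. The share of Acvrl1, a type I receptor known from endothelium that binds BMP9 and BMP10, was 1.81% ± 0.148 with mutant Snai1, 7.0% ± 2.57 with wild-type Snai1 and 2.03% ± 0.150 with empty vector. Acvr1b and Tgfbr1 made up nearly all of the rest. The type II sum was 59.1 ± 4.61 CPM per kilobase with mutant Snai1, 71.4 ± 11.8 with wild-type Snai1 and 62.6 ± 1.51 with empty vector, and Tgfbr2 was 70.6% of it with mutant Snai1, 67.9% with wild-type Snai1 and 68.5% with empty vector.

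**Figure D4:**
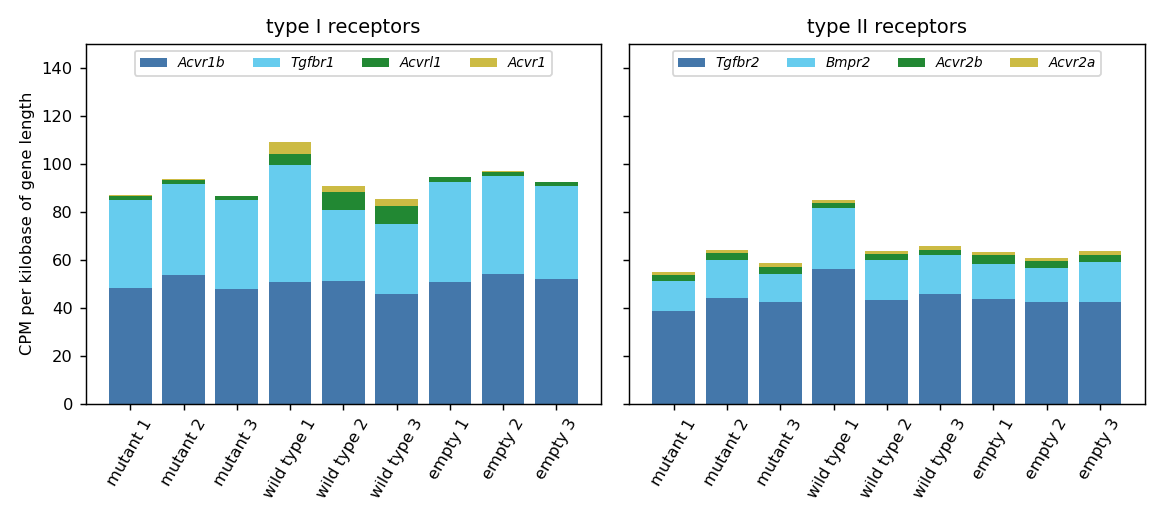
Summed levels of the type I (left) and type II (right) receptors in each library, in CPM per kilobase, stacked by gene and ordered as mutant Snai1, wild-type Snai1 and empty vector. Acvr1b, Tgfbr1 and Tgfbr2 make up most of each bar, the Acvr1 and Acvrl1 segments are visible at the top of the 3 wild-type Snai1 bars, and wild-type Snai1 replicate 1 has the tallest bar in both panels.

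Other genes of the pathway were described from lists by role, in which 0 genes were called with mutant Snai1 against empty vector in every list (without wild-type Snai1 replicate 1, 1 target, Bhlhe40, and 1 receptor partner were). Counts of higher and lower genes in the lists are for wild-type Snai1 against empty vector, where 25.2% of all tested genes were higher and 24.3% lower. The ligand list holds 23 genes, among them Bmp1, which is not a receptor ligand. Of the 23, 6 were tested, with 2 higher and 0 lower. Bmp1, a protease that cleaves procollagen and Chordin, was at 60.8, 70.3 and 62.5 CPM with mutant Snai1, 102, 95.1 and 88.2 CPM with wild-type Snai1, and 69.3, 66.7 and 71.0 CPM with empty vector, and rose with wild-type Snai1 (log2 0.46, adjusted p = 0.000531). Gdf15, a stress-induced cytokine, rose as well, with 4 counts in all with mutant Snai1, 120 with wild-type Snai1 and 2 with empty vector, a ratio of 57.8 between wild-type Snai1 and empty vector (95% counting interval 15.6 to 483). Gdf15 passed the filter only through wild-type Snai1, so a rise was the only call open to it. Tgfb1, the ligand of Tgfbr2 in blood cells, was at 418, 382 and 432 CPM with mutant Snai1, 285, 355 and 409 CPM with wild-type Snai1, and 420, 386 and 330 CPM with empty vector. It was not called with wild-type Snai1 against empty vector (log2 -0.11, adjusted p = 0.484), and neither were Tgfb3, Inha and Gdf11.

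Of the 13 other receptors and co-receptors, 4 were tested, with 2 higher and 1 lower. Acvrl1 was at 5.81, 5.59 and 6.08 CPM with mutant Snai1, 16.1, 26.7 and 27.4 CPM with wild-type Snai1, and 7.44, 7.18 and 6.28 CPM with empty vector, and rose with wild-type Snai1 (log2 1.75, SE 0.19, adjusted p = 3.66e-05). Neo1, a receptor for repulsive guidance molecules, rose by 0.45 (adjusted p = 8.72e-05), and Bambi, a receptor without a kinase domain that blocks signalling, fell by 1.06 on the log2 scale (adjusted p = 0.00468). Eng, the co-receptor of Acvrl1, was at 152, 158 and 148 CPM with mutant Snai1, 181, 140 and 148 CPM with wild-type Snai1, and 150, 144 and 148 CPM with empty vector and was not called. The exons of Acvrl1 overlap those of a transcript on the opposite strand.

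Of the 12 genes of latency and activation, 6 were tested, with 3 higher and 1 lower. Furin, the protease that cleaves TGF-beta precursors, was at 195, 223 and 213 CPM with mutant Snai1, 495, 978 and 1049 CPM with wild-type Snai1, and 199, 192 and 188 CPM with empty vector, and rose with wild-type Snai1 (log2 2.12, adjusted p = 0.000153). Integrin subunits that activate latent TGF-beta went both ways, with Itgav higher (log2 0.84, adjusted p = 0.000256) and Itgb6 lower (log2 -1.20, adjusted p = 4.08e-05). Ltbp3, which binds latent TGF-beta as Ltbp1 does, rose by 0.59 (adjusted p = 0.00884). Of the 14 genes listed as antagonists, 3 were tested: Crim1, a transmembrane protein, rose (log2 1.51, adjusted p = 0.000100), Dand5 fell (log2 -1.12, adjusted p = 0.00815) and Twsg1 was at 0.12 (adjusted p = 0.0947). Furin, Itgav, Ltbp3 and Crim1 have exons that overlap genes on the opposite strand, as do Eng, Dab2, Nedd4l, Cdkn1a, Bhlhe40, Tgm2, P2ry1 and Pea15a, so reads of both strands may be mixed in their counts.

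Of 12 Smads and corepressors, 11 were tested, with 3 higher and 1 lower. Smad3, the effector of TGF-beta and activin receptors, was at 139, 148 and 144 CPM with mutant Snai1, 103, 96.6 and 95.6 CPM with wild-type Snai1, and 143, 148 and 157 CPM with empty vector, and fell with wild-type Snai1 (log2 -0.60, adjusted p = 1.30e-05). Smad2, its closest relative, rose by 0.16 (adjusted p = 0.0257), a call lost with unscaled library totals (adjusted p = 0.143) and without empty vector replicate 1 (adjusted p = 0.102) or 2 (adjusted p = 0.0834). The corepressor Ski rose by 0.39 (adjusted p = 0.000231). Smad7, the inhibitory Smad that binds type I receptors, was called higher (log2 0.93, adjusted p = 0.0271), although wild-type Snai1 replicate 1 (59.5 CPM) lay within the empty vector range of 48.1 to 67.6 CPM. Its call was lost without wild-type Snai1 replicate 2 or 3 or empty vector replicate 2 or 3 (adjusted p = 0.0758 to 0.0834). Of 20 receptor partners and regulators of receptor turnover, all were tested, with 11 higher and 4 lower. They included the endocytic adaptor Dab2 (log2 2.41, adjusted p = 1.71e-05), the ubiquitin ligase Nedd4l (log2 0.31, adjusted p = 0.000769) and the dynein light chain Dynlrb1 (log2 0.39, adjusted p = 0.00204) on the higher side, and the kinase adaptor Tab1 (log2 -0.56, adjusted p = 0.00136) on the lower side. Zfyve9, also among the 11, averaged 0.0669 CPM with mutant Snai1, 0.843 CPM with wild-type Snai1 and 0.087 CPM with empty vector. It passed the filter only through wild-type Snai1, so a rise was the only call open to it.

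Of 23 known target genes of the pathway, 17 were tested with wild-type Snai1 against empty vector. Of these 17, 11 were higher and 0 lower, with a median log2 fold change of 0.99 against -0.000331 over all tested genes. Tgfbi and Tgm2 had at most 9 counts in any library without wild-type Snai1. They passed the filter only through that group and could be called in that direction only, so the split and the median are partly set by the filter. The list was also chosen with earlier results of these data known. The list holds genes that many stimuli induce, and 5 of its names also stand in other lists (Ltbp3, Smad6, Smad7, Skil and Tgif1). Without wild-type Snai1 replicate 1, 13 were higher, and without wild-type Snai1 replicate 2 or 3 or empty vector replicate 2 or 3, 6 or 7 were. Calls over all tested genes moved the same way. They went from 6172 to 7410 without wild-type Snai1 replicate 1, and to 5106 to 5615 without any of the others named. Cdkn1a, a cell cycle inhibitor, was at 580, 552 and 673 CPM with mutant Snai1, 1023, 1166 and 1275 CPM with wild-type Snai1, and 498, 476 and 454 CPM with empty vector (log2 1.28, adjusted p = 2.84e-06 with wild-type Snai1). Its 3 mutant Snai1 libraries lay above the 3 with empty vector, without a call (log2 0.34, adjusted p = 0.98).

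Tgfbi, an extracellular matrix protein named for its induction by TGF-beta, was at 0.306, 0.200 and 0.102 CPM with mutant Snai1, 3.19, 4.6 and 5.12 CPM with wild-type Snai1, and 0.479, 0.289 and 0.322 CPM with empty vector (log2 3.55, adjusted p = 9.86e-06). Bhlhe40, a transcription factor, and Tgm2, a transglutaminase, rose by 1.34 (adjusted p = 7.14e-05) and 3.75 (adjusted p = 9.46e-05). Id1, Id2 and Id3 are classical targets that were named after their values were seen.

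The Id genes, which encode inhibitors of helix-loop-helix factors and are direct targets of BMP signalling, varied among wild-type Snai1 libraries. Id1 was at 24.2, 20.01 and 36.8 CPM with mutant Snai1, 39.4, 123 and 147 CPM with wild-type Snai1, and 42.3, 23.2 and 17.3 CPM with empty vector. Wild-type Snai1 replicate 1 lay within the empty vector range for Id1, and replicates 2 and 3 lay above it. Replicate 1 had the highest Acvr1 and the lowest Acvrl1 (16.1 CPM) of its group, and a relation of either to Id1 was not tested. Id1 was called higher (log2 1.90, adjusted p = 0.0204), a call lost without wild-type Snai1 replicate 2 or 3 or empty vector replicate 2 or 3 (adjusted p = 0.0506 to 0.0734). Id2 was at 109, 94.5 and 155 CPM with mutant Snai1, 154, 337 and 405 CPM with wild-type Snai1, and 184, 100 and 115 CPM with empty vector (log2 1.17, adjusted p = 0.0392 with wild-type Snai1 against empty vector), a call lost without the same libraries or without mutant Snai1 replicate 1 (adjusted p = 0.052 to 0.129). Id3 was not called (log2 0.82, adjusted p = 0.297), and was called without wild-type Snai1 replicate 1 (log2 1.28, adjusted p = 0.0157).

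Mutant against wild-type Snai1 shares the wild-type Snai1 libraries with the comparison described so far. Over all tested genes 23.4% were higher and 24.5% lower there. Of the 17 tested targets 0 were higher and 10 lower, and of the 20 receptor partners 3 were higher and 9 lower. Of the 11 tested Smads and corepressors 1 was higher and 3 were lower. The targets Tgfbi and Tgm2, the receptor partner Zfyve9 and the ligand Gdf15 passed the filter only through wild-type Snai1 and could be called lower only. The ligand list had 0 higher and 2 lower (Bmp1 and Gdf15) of 6 tested. Other receptors had 1 and 2 of 4, latency genes 2 and 3 of 6, and antagonists 1 and 1 of 3.

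**Figure D5:**
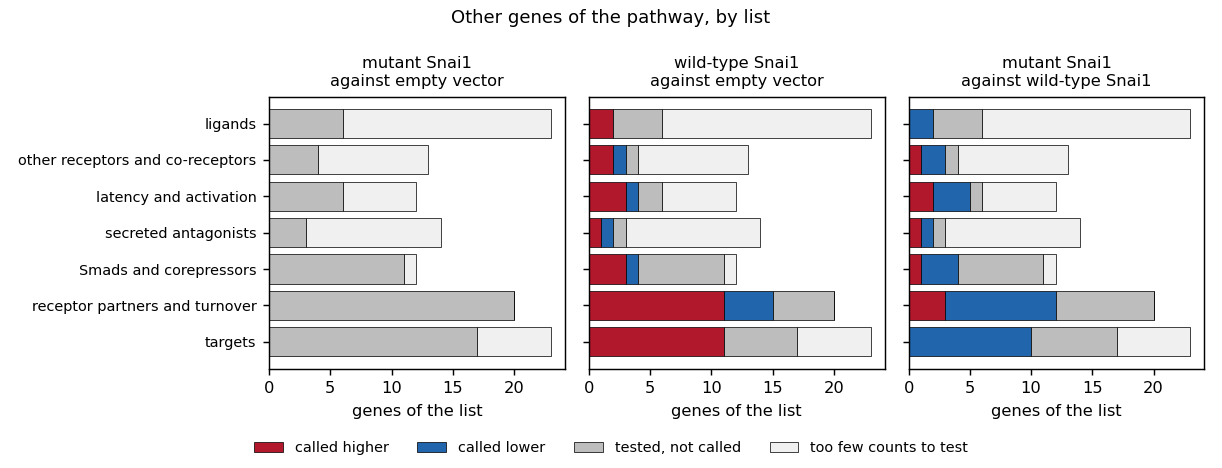
Genes of each pathway list called higher, called lower, tested without a call, or with too few counts to test, in the 3 comparisons. With mutant Snai1 against empty vector 0 genes were called, and with wild-type Snai1 against empty vector 11 of the 17 tested targets were higher and 0 lower. The targets Tgfbi and Tgm2, the receptor partner Zfyve9 and the ligand Gdf15 passed the filter only through wild-type Snai1.

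The genes most like each of the 3 widest-ranging receptor genes were found as those with the smallest root mean square difference of log2 CPM over the 9 libraries, after centring each gene, among 11611 genes. For Acvr1 they were Spin4 (0.246), P2ry1 (0.259) and Tlr7 (0.271), for Ltbp1 Pcx (0.106), Bbs9 (0.117) and Pea15a (0.134), and for Acvr2b A930003A15Rik (0.0901), a gene without a symbol (0.0907) and Lmln (0.119). With wild-type Snai1 against empty vector, Spin4, P2ry1 and Tlr7 had log2 fold changes of 3.82, 4.18 and 4.36, beside 4.37 for Acvr1. These genes were picked for their likeness over the same libraries, so the closeness of the fold changes follows from the choice. P2ry1 averaged 0.337 CPM with mutant Snai1, 6.33 CPM with wild-type Snai1 and 0.344 CPM with empty vector, and passed the filter only through wild-type Snai1.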

How the data were processed

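The authors deposited raw counts for each gene, made with featureCounts on the mm10 mouse genome per the submitters' processing notes, which list edgeR 3.15.0 with limma 3.29.12 as further tools. The labels' protocols name TruSeq stranded mRNA libraries from sorted cells; the aligner, the annotation and the strand setting are not given in the sources used here. Each row of the deposited file has a gene length in bases, used here for levels per kilobase. Symbols and positions came from RefSeq on GRCm38.p6, which matched 25275 of 27179 rows, and exon overlaps from GENCODE M21.

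Counts were filtered with filterByExpr and fitted in edgeR 4.0.16 (R 4.3.3), with TMM scaling and 1 robust quasi-likelihood fit of all 9 libraries. P-values were adjusted by the Benjamini-Hochberg method over 12484 genes and called below 0.05. The SE is the size of the log2 fold change over the square root of the F statistic. CPM use the TMM-scaled library size, and values after ± are SDs of 3 libraries. Total counts per library were 18332451 to 20860314. Without molecular identifiers, PCR copies count as separate reads, so floors and counting intervals cover counting error only. The fit was tested on simulated data. Alternatives were RLE and unscaled sizes, other filters, a replicate block, no robust estimation, glmTreat, fits of 2 groups, DESeq2 1.42.0 and leaving out each library; those for the pathway lists were added after seeing the data. The genes and lists were chosen with earlier results of these data known. Named genes were the 10, Snai1, Kdm1a, and from each list up to 4 with the smallest adjusted p with wild-type Snai1 against empty vector. Values of 1 gene of the target list are not reported here.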

Additional observations from a re-analysis of the deposited data

How the results depend on the processing

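Acvr1 and Ltbp1 kept their direction and their calls with wild-type Snai1, against empty vector and against mutant Snai1, in all 18 alternatives, with log2 fold changes of 4.07 to 4.55 for Acvr1 and 1.45 to 1.66 for Ltbp1 against empty vector. No called value reversed. A test against a 1.5-fold change (glmTreat) left 1588 tested genes called with wild-type Snai1 against empty vector and 1525 with mutant against wild-type Snai1, where the test against no change called 6172 and 5977, and left 0 receptor genes lower in the first comparison and 0 higher in the second, so Tgfbr3 and Acvr2b lost their calls. Bmpr2 also lost its call in the second (adjusted p = 1), where 2 receptor genes stayed lower. Leaving out single libraries gave 1 to 3 receptor genes lower in the first comparison and 1 to 2 higher in the second. Over all tested genes the same fits called 5106 to 7410 in the first comparison and 4978 to 7308 in the second. Tested genes called with mutant Snai1 against empty vector numbered 30 with only the 2 groups fitted, 10 by DESeq2 and 1 to 62 when single libraries were left out. Bmpr2, lower with mutant than with wild-type Snai1, lost its call without the filter (adjusted p = 0.053) and with only 2 groups fitted (adjusted p = 0.0567). The cause was not tested. Genes near 10 counts, such as Acvr1 with mutant Snai1 or empty vector, are limited by depth.

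For the pathway lists, whose alternatives were chosen after seeing the data, glmTreat called 1 ligand, 1 other receptor, 2 latency genes, 1 antagonist, 0 Smads and corepressors, 3 receptor partners and 5 targets with wild-type Snai1 against empty vector, and 1, 1, 3, 1, 0, 3 and 6 with mutant against wild-type Snai1. A mean of at least 1 CPM left 1 ligand called in each of these comparisons, no filter left 2 Smads and corepressors in the first, and a fit of 2 groups called 1 receptor partner with mutant Snai1 against empty vector. Leaving out single libraries gave 6 to 13 targets and 2 to 6 Smads and corepressors in the first comparison. In the second it gave 2 to 6 Smads and corepressors, 2 to 4 ligands and 1 to 2 antagonists. With mutant Snai1 against empty vector it gave 0 to 1 targets and 0 to 1 receptor partners.

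Replicate numbers gave no clear pairing of the libraries. Correlations of deviations from group means ran from -0.0873 to 0.210 within a number, above 0.1 in 2 of 9 pairs. Between numbers they ran from -0.165 to 0.117, above 0.1 in 1 of 18 pairs. Of the 9 libraries, 4 correlated best with their own number. So few pairs cannot exclude a pairing. With the replicate number as a block, 7 targets were called with wild-type Snai1 against empty vector, and 5886 tested genes. The block changed no call of the receptor genes, while Smad7 (adjusted p = 0.0659), Id1 (adjusted p = 0.0839) and Id2 (adjusted p = 0.0909) were no longer called.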
